A study of Mus musculus with 8 samples.

Results

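The cells described here are the GFP-negative cells of the developing mouse olfactory bulb, compared between late ages (embryonic day 17, E17, and the day of birth, P0) and early ages (embryonic days 13 and 15, E13 and E15). The rule takes 4 of the 8 libraries of the series, 2 late and 2 early, and 11675 of the 42084 rows of the expression table, namely those at 5 FPKM or more in the highest of the 4 libraries, without rows named as microRNAs or small nucleolar RNAs. A row that names such an RNA together with another gene was left out too. FPKM counts fragments for each kilobase of a transcript relative to the size of the library. All mice were of a mixed 129 and C57BL/6J background and carried 1 or 2 copies of an Nts allele that expresses a tau-GFP fusion together with the peptide neurotensin. Bulb cells freed with papain were sorted on GFP fluorescence, so the GFP-negative libraries hold every bulb cell without visible reporter, and the GFP-positive libraries the cells that express Nts. The groups used are GFP-negative late (E17, P0), GFP-negative early (E13, E15), GFP-positive late (E17, P0) and GFP-positive early (E13, E15). Each age and population has 1 library. The source labels name GFP+ cells throughout, so titles and the separate population labels assigned each library. How many embryos or pups were pooled for a sort is not stated in the labels. The 2 libraries of a side differ in age, so the error used throughout includes the change of age within a side, and no value has a replicate at its own age.

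The bulb forms from radial glia, the dividing progenitors that line its ventricle and that first give rise to projection neurons, the mitral and tufted cells. Hedgehog, Wnt and Notch signals keep such progenitors dividing or time their differentiation, and in the hedgehog pathway Gli3 acts mainly as a repressor of transcription. Interneurons of the bulb, most of them GABAergic, are born largely outside it and migrate in as neuroblasts through the rostral migratory stream during late gestation and after birth. Genes of mitosis and of DNA replication are switched on together in dividing cells, the first through CHR and CCAAT promoter elements bound by the DREAM and MuvB complexes, and the second largely through E2F sites.

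The promoters of 2 mitosis genes and 2 replication genes are printed because members of these 2 lists were lower in late GFP-negative cells in parallel. They were taken in order of the log2 difference, only from members whose promoter already holds the motifs marked, or for replication either E2F site. Ndc80 (-2.42), without a CCAAT box, was passed over for Prc1 (-2.38). Gmnn (-2.83), without a promoter in the table, and Ung (-2.80), without an E2F site, were passed over for Uhrf1 (-2.47). The printed promoters thus do not show how common the motifs are. Sequences are RefSeq promoters on the gene's own strand, 5' to 3', of build GRCm38.p6 and 300 bases long, with 250 bases before the gene's start. In the first 2 sequences capitals mark the CHR (TTTGAA) and the CCAAT box (CCAAT). In the last 2 they mark the E2F sites GGCGGGAA and TTTGGCGC, of which Uhrf1 holds GGCGGGAA alone. Motifs are marked on either strand, with no overlap between them in the letters shown. Ccnb2 encodes a mitotic cyclin (chr9:70421505-70421804, minus strand), Prc1 a bundler of spindle microtubules (chr7:80294201-80294500, plus strand), Mcm3 a subunit of the replicative helicase (chr1:20820263-20820562, minus strand) and Uhrf1 a protein that keeps DNA methylation through replication (chr17:56303087-56303386, plus strand).
Ccnb2: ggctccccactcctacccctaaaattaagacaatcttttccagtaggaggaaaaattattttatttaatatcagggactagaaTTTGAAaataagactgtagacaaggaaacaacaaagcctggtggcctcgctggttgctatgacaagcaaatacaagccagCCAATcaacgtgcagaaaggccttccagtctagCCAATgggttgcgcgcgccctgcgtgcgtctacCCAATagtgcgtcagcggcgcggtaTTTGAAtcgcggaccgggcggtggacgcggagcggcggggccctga
Prc1: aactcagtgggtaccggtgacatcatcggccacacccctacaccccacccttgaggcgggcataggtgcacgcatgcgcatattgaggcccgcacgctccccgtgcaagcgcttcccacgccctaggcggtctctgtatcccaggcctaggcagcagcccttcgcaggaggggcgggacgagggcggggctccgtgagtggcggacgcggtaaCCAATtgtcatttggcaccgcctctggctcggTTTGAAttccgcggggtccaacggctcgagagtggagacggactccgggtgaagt
Mcm3: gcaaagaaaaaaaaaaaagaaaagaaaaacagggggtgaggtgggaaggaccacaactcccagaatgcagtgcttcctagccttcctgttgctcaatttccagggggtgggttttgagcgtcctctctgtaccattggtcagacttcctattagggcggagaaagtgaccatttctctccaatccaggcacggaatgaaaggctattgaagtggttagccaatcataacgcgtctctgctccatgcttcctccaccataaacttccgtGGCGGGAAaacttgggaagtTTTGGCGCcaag
Uhrf1: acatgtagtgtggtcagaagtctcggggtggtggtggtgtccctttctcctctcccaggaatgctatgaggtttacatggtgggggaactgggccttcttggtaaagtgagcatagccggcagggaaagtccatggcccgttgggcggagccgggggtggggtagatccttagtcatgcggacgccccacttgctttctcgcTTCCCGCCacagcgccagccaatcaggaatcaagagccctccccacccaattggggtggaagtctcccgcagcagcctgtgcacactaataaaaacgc

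Among the 26 tested mitosis genes of 31 with a promoter in the table, 19 (73.1%) held a CHR, 21 (80.8%) a CCAAT box and 18 (69.2%) both. The corresponding shares were 10.9%, 39.3% and 4.7% in the promoters of the 6910 protein-coding genes tested that have one, and 18.1%, 37.9% and 7.1% in all 27025 promoters of the table. Of the 24 replication genes with a promoter, 9 (37.5%) held either E2F site, against 5.4% of the tested protein-coding genes and 2.7% of all promoters. Radial glia genes held a CHR in 2 of 19 promoters (10.5%) and GABAergic interneuron genes in 1 of 13 (7.7%). The CCAAT box was frequent in other lists too, with 62.5% of replication, 63.2% of radial glia and 46.2% of GABAergic interneuron promoters. Among all tested protein-coding genes that were at least 2-fold lower in late cells with no overlap, 15.7% held a CHR and 9.9% both elements, and among those at least 2-fold higher 8.8% and 2.8% did. A match describes letters in this window and not a bound site.

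The sort separated the reporter gene in every library. Nts was at 5.59 FPKM at E17 and 4.33 at P0 in GFP-negative cells, and at 1.92 FPKM at E13 and 4.54 at E15, whereas the 4 GFP-positive libraries held between 673 and 1036 FPKM. Late and early GFP-negative libraries overlapped for Nts. Mapt, the gene of the tau protein that the reporter also encodes, was at 75.5 and 120 FPKM at E17 and P0, against 38.7 and 65.7 FPKM at E13 and E15 (log2 difference 0.90 ± 0.37, limma adjusted p = 0.263). Low values of genes with 1 transcript implied a relative depth of 5490000 (E17) to 9010000 (E15) reads in the GFP-negative libraries, with 87.4% to 90.2% of the low values whole within 0.1 read. Between the late and early libraries the median row differed by 0.04 log2 units.

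Late and early GFP-negative cells differed in many rows, but few of them passed the test. In 865 rows (7.41%) both late libraries lay above both early ones with a difference of at least 2-fold on the log2(FPKM + 1) scale, and in 1037 rows (8.88%) both lay below by as much. These counts are descriptions with no test, and below such a row is called separated. The same 7.41% and 8.88% are the background for each list count of separated members below. A row needs 5 FPKM in only 1 of the 4 libraries. In every list below, members low on 1 side can thus enter through the side where they are high, be it late or early. This can tilt list counts and medians. In the limma fit over all 8 libraries, with 4 residual degrees of freedom and adjustment over all 11675 rows, 12 rows (0.103%) rose and 9 rows (0.0771%) fell in late cells, and 2092 rows were at an unadjusted p below 0.05. Of these 21 rows, 16 belong to small RNA classes with 100 to 133 exonic bases, which the naming rule does not catch, and 17 were listed at 0 on 1 side. An exact permutation of 2 libraries against 2 cannot go below p = 0.333.

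Stk39, Ppp1r1a and Dmrta1 were called lower and Calb2 higher in late GFP-negative cells, and these were the protein-coding genes among the 21. Stk39, a kinase that regulates cation-chloride cotransporters (minus strand of chromosome 2, 68210445 to 68472268), was at 17.1 FPKM at E17 and 17.1 at P0, against 100.5 FPKM at E13 and 74.2 at E15. The log2 difference was -2.27 ± 0.24 (SE, limma adjusted p = 0.0227). Ppp1r1a, an inhibitor of protein phosphatase 1 (minus strand of chromosome 15, 103530279 to 103538003), was at 2.99 and 3.85 FPKM at E17 and P0, against 22.5 and 18.3 FPKM at E13 and E15 (log2 difference -2.28 ± 0.25, limma adjusted p = 0.0267). The doublesex-related transcription factor gene Dmrta1 (chromosome 4, 89679436 to 89694772, plus strand), which is expressed in forebrain progenitors, was at 4.34 FPKM at E17 and 1.65 at P0, against 154 FPKM at E13 and 59.9 at E15 (log2 difference -4.69 ± 0.56, limma adjusted p = 0.0370). Calb2, which encodes calretinin, a calcium-binding protein of a large class of bulb interneurons (minus strand of chromosome 8, 110137502 to 110168210), was at 38.3 and 44.0 FPKM at E17 and P0, against 12.2 and 11.2 FPKM at E13 and E15 (log2 difference 1.73 ± 0.21, limma adjusted p = 0.0467). The 2 early values of Calb2 lay close together and far below both late ones. Calb2 also marks Cajal-Retzius cells, and it was higher in the GFP-positive libraries, with 95.9 and 123 FPKM at E17 and P0, against 76.7 and 86.9 FPKM at E13 and E15. The calls depend on the libraries, and with 1 library left out the lone library of that side is assumed to vary like the other groups. Without the E13, E15, E17 or P0 library the limma adjusted p was 0.0772, 0.0338, 0.0713 and 0.0682 for Stk39, 0.125, 0.0599, 0.0638 and 0.0405 for Ppp1r1a, 0.151, 0.0442, 0.0739 and 0.125 for Dmrta1, and 0.106, 0.0886, 0.0638 and 0.0846 for Calb2. With the same limma fit adjusted over protein-coding rows alone, the adjusted p of all 4 was 0.102. When all small RNA classes were left out of the fit, 1 row passed, and it was none of these 4. Of 115 named genes, 46 had a fold that moved by over 1.5 times when 1 GFP-negative library was left out. The log2 difference then lay between -5.07 and -2.93 for Hmga2, -3.16 and -1.04 for Dll1, 1.85 and 3.79 for Erbb4, and 2.29 and 4.21 for Nr4a1, genes whose values are given below.

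When rows of 1 protein-coding gene were fitted on their own, an alternative chosen after seeing the data, 91 of 9004 rows (1.01%) were called higher and 123 (1.37%) lower, and all 214 had late and early libraries without overlap. This count rests on single libraries. It was 0 without E13 (1122 rows at an unadjusted p below 0.05), 32 without E15, 55 without E17 and 0 without P0 (1601 rows unadjusted), in limma. Adjusted p-values from this fit are named as such in what follows, and its calls are not described as changes.

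**Figure D1:**
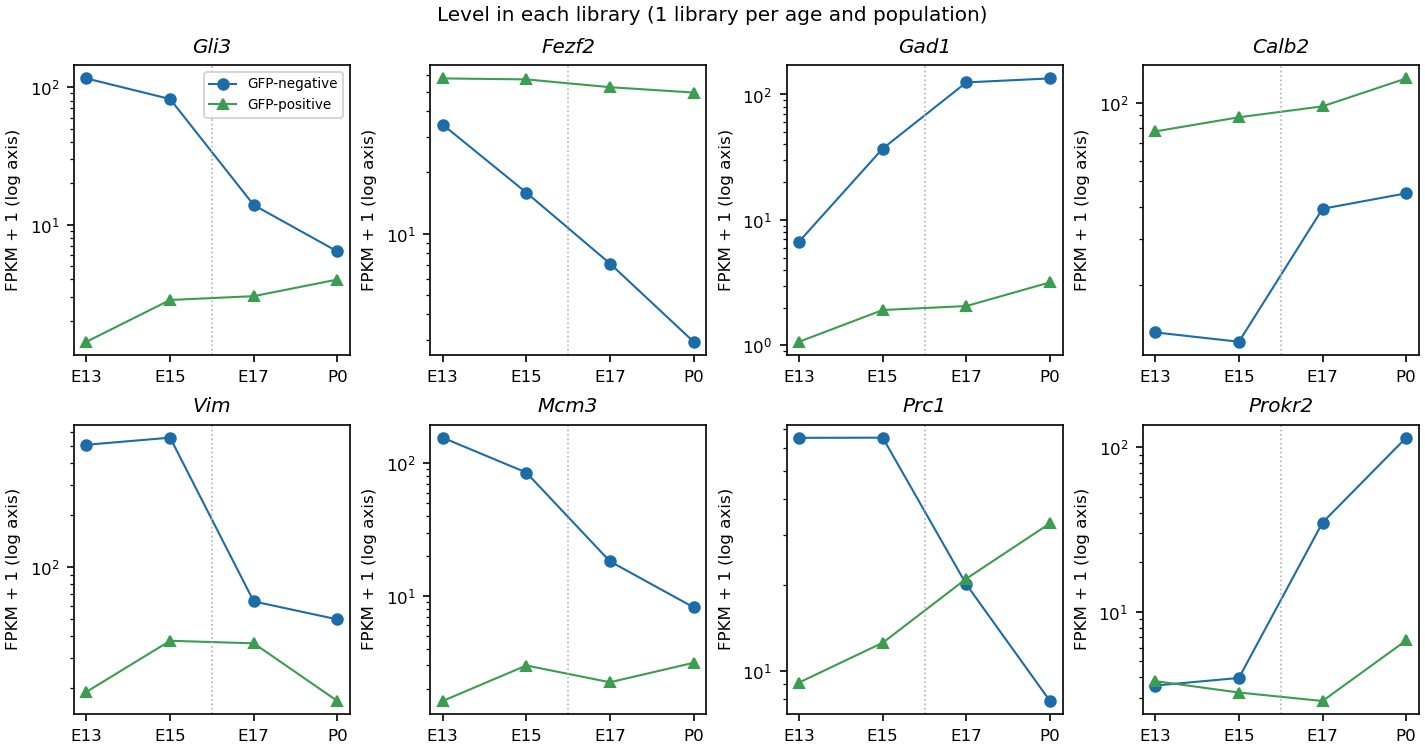
FPKM + 1 (log axis) of 8 genes in each library, by age in both populations; each point is 1 library and the dotted line divides early from late ages. Gli3, Fezf2, Vim, Mcm3 and Prc1 are lower and Gad1, Calb2 and Prokr2 higher in both late GFP-negative libraries than in both early ones.

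Of the 3 genes that mark this contrast, Gli3 and Fezf2 were separated and lower, and Gad1 separated and higher, in late libraries, without passing the test. In bulk libraries fewer cells of a type and less RNA per cell cannot be told apart. Gli3 (chromosome 13, 15463235 to 15730026, plus strand) was at 12.9 FPKM at E17 and 5.39 at P0, against 115 FPKM at E13 and 81.0 at E15. Both late libraries lay below both early ones (log2 difference -3.37 ± 0.50, SE, limma adjusted p = 0.0735). Gad1, which encodes a GABA-synthesizing enzyme (chromosome 2, 70553072 to 70602014, plus strand), was at 124 and 133 FPKM at E17 and P0, against 5.72 and 36.0 FPKM at E13 and E15. The groups did not overlap, but E13 lay far below E15 (log2 difference 3.04 ± 0.76, limma adjusted p = 0.141), and without E13 the difference was 1.81. Fezf2, a zinc finger transcription factor gene of forebrain progenitors and deep-layer cortical neurons (minus strand of chromosome 14, 12342094 to 12348189), was at 6.12 and 1.93 FPKM at E17 and P0, against 33.4 and 14.9 FPKM at E13 and E15 (log2 difference -2.36 ± 0.49, limma adjusted p = 0.115). In the protein-coding fit the adjusted p was 0.0309 for Gli3, 0.0511 for Gad1 and 0.0386 for Fezf2.

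Most genes of the radial glia list were lower in late cells, but none passed the test over all rows. Of 22 listed and tested, 17 were separated and lower and 0 higher, against 8.88% and 7.41% of all rows, and the list's median log2 difference was -2.11 against 0.04 over all rows. Of the 22, 8 were called lower in the protein-coding fit, beside 1.37% of all its rows, and that fit called none without E13 or without P0. Vim, which encodes the intermediate filament vimentin, was at 62.5 and 49.0 FPKM at E17 and P0, against 508 and 559 FPKM at E13 and E15 (log2 difference -3.24 ± 0.44, limma adjusted p = 0.0586). It stood at similar levels in both early libraries. Nr2e1, a nuclear receptor gene that keeps neural stem cells dividing, was at 4.29 and 4.61 FPKM at E17 and P0, against 95.2 and 45.5 FPKM at E13 and E15. Hopx, a small homeodomain protein gene of progenitors, was at 3.97 and 0.479 FPKM at E17 and P0, against 26.9 and 11.3 FPKM at E13 and E15. Sox3, a stem cell transcription factor gene, was at 0.195 and 0.0779 FPKM at E17 and P0, against 11.2 and 3.67 FPKM at E13 and E15. These 4 had the largest differences of the list, and the 5 members that were not separated, named after their values were seen, include widely used markers of progenitors. Pax6 was at 75.9 and 69.3 FPKM at E17 and P0, against 127 and 106 FPKM at E13 and E15, and Sox2 at 25.1 and 26.8 FPKM, against 35.9 and 35.5 FPKM. Slc1a3, a glutamate transporter gene, was at 75.4 and 52.9 FPKM at E17 and P0, against 98.2 and 113 FPKM at E13 and E15. These 3 were lower without overlap but by less than 2-fold. Sox1 was at 48.1 and 48.9 FPKM at E17 and P0, against 36.5 and 40.0 FPKM at E13 and E15, and thus not lower, and Tnc overlapped.

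Mitosis and DNA replication genes were lower together, but none of them passed the test over all rows. Of 31 mitosis genes listed and tested, 30 were separated and lower and 0 higher, with a median log2 difference of -1.90, and differences from -2.42 to -0.73. Ccnb2 was at 5.55 FPKM at E17 and 2.82 at P0, against 21.9 FPKM at E13 and 30.4 at E15 (log2 difference -2.42 ± 0.55, limma adjusted p = 0.123). Ndc80, a kinetochore protein gene, was at 1.99 and 0.653 FPKM at E17 and P0, against 10.2 and 11.6 FPKM at E13 and E15. Kif20a, a kinesin gene of cytokinesis, was at 1.93 and 1.88 FPKM at E17 and P0, against 16.2 and 10.4 FPKM at E13 and E15. Late libraries stood below early ones for each. In the protein-coding fit 7 of its 30 mitosis rows and 10 of its 30 replication rows were called lower, beside 1.37% of all its rows and with the same dependence on E13 and P0. Prc1 was at 19.1 and 6.87 FPKM at E17 and P0, against 64.3 and 64.4 FPKM at E13 and E15. Of 33 replication genes listed, 30 were tested, 25 were separated and lower and 0 higher, and the median difference was -1.77. Mcm7 was left out by name and not for its level, since its row is shared with a small RNA. That row was at 36.5 and 42.4 FPKM at E17 and P0, against 85.9 and 64.2 FPKM at E13 and E15. Mcm3 was at 17.3 and 7.23 FPKM at E17 and P0, against 155 and 84.4 FPKM at E13 and E15 (log2 difference -3.24 ± 0.53, limma adjusted p = 0.0878). Gmnn, which encodes the replication inhibitor geminin, was at 4.81 and 1.35 FPKM at E17 and P0, against 30.9 and 20.6 FPKM at E13 and E15. Ung, a uracil DNA glycosylase gene, was at 2.39 and 3.72 FPKM at E17 and P0, against 33.2 and 21.7 FPKM at E13 and E15. Uhrf1 was at 7.95 and 2.23 FPKM at E17 and P0, against 31.2 and 26.6 FPKM at E13 and E15. The early libraries were the high ones for all 4, with no overlap. Median log2 steps of the mitosis list were 0.09 between E13 and E15, -1.31 between E15 and E17 and -0.88 between E17 and P0. The same steps of the replication list were -0.37, -1.23 and -0.79, so for both lists the step between E15 and E17 was the largest of the 3.

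Cell cycle inhibitors differed in both directions. Of 12 listed, 10 were tested, 3 were separated and higher and 4 separated and lower. Cdkn1a, which encodes the kinase inhibitor p21, was at 6.54 and 24.3 FPKM at E17 and P0, against 1.85 and 3.24 FPKM at E13 and E15 (log2 difference 1.99 ± 0.66, limma adjusted p = 0.199). Cdkn1c, which encodes p57, was at 3.43 and 4.20 FPKM at E17 and P0, against 34.2 and 6.33 FPKM at E13 and E15 (log2 difference -1.74 ± 0.69, limma adjusted p = 0.252). Cdkn2c, which encodes p18, was at 2.80 and 1.46 FPKM at E17 and P0, against 7.08 and 16.7 FPKM at E13 and E15. Rbl1, a pocket protein gene of the retinoblastoma family, was at 1.79 and 1.64 FPKM at E17 and P0, against 21.2 and 5.97 FPKM at E13 and E15. For Cdkn1c and Rbl1 the E13 library alone was far above the other 3.

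Hedgehog genes differed in both directions, and none passed the test. Of 15 listed genes, 11 were tested, 5 were separated and lower (Gli3, Boc, Gas1, Gli2 and Smo), and 1 separated and higher (Disp1). The ligand gene Shh and the target genes Gli1 and Hhip did not reach the 5 FPKM filter, nor did Kif7. The coreceptor gene Boc was at 8.69 and 1.75 FPKM at E17 and P0, against 34.4 and 22.1 FPKM at E13 and E15 (log2 difference -2.47 ± 0.68, limma adjusted p = 0.159). The coreceptor gene Gas1 was at 7.81 and 4.36 FPKM at E17 and P0, against 37.1 and 18 FPKM at E13 and E15. Cdon, a further coreceptor, overlapped, with 45.1 and 16 FPKM at E17 and P0, against 56.9 and 40.9 FPKM at E13 and E15. The early libraries were thus the higher ones for Boc and Gas1 but not cleanly for Cdon. Smo, the signal transducer, was at 7.29 and 5.11 FPKM at E17 and P0, against 23.4 and 12.5 FPKM at E13 and E15. Gli2, the main transcriptional activator, was at 17 and 4.33 FPKM at E17 and P0, against 37.2 and 33.1 FPKM at E13 and E15 (log2 difference -1.88 ± 0.57, limma adjusted p = 0.174). Ptch1, Sufu and Gpr161 were not lower. The receptor gene Ptch1 was at 35.9 and 16.7 FPKM at E17 and P0, against 20.0 and 16.6 FPKM at E13 and E15. Sufu, which holds Gli proteins inactive, was at 16.3 and 24.7 FPKM at E17 and P0, against 12.9 and 18.1 FPKM at E13 and E15, with overlap. Gpr161, a ciliary inhibitor of the pathway, was at 9.30 and 10.2 FPKM at E17 and P0, against 9.01 and 7.65 FPKM at E13 and E15. Disp1, which releases the ligand from cells, was at 11.3 and 10.6 FPKM at E17 and P0, against 3.39 and 4.74 FPKM at E13 and E15.

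Wnt and Notch genes had lower medians, -0.73 over 17 tested of 26 Wnt genes and -1.67 over 18 tested of 20 Notch and proneural genes. No member of either list passed the test over all rows. In the Wnt list 6 were separated and lower and 1 higher. Sfrp1, a secreted Wnt antagonist, was at 60.2 and 30.7 FPKM at E17 and P0, against 292 and 196 FPKM at E13 and E15 (log2 difference -2.45 ± 0.50, limma adjusted p = 0.111). Tcf7l2, a transcription factor that binds beta-catenin, was at 13.2 and 5.12 FPKM at E17 and P0, against 49.0 and 33.6 FPKM at E13 and E15. Tcf7l1 was at 7.64 and 1.89 FPKM at E17 and P0, against 27.7 and 17.3 FPKM at E13 and E15. All 3 were lowest at P0 and highest at E13. The receptor gene Fzd8 was at 6.10 and 2.40 FPKM at E17 and P0, against 28.8 and 16 FPKM at E13 and E15. Of the Notch and proneural list, 15 were separated and lower and 0 higher, and 4 of 17 were called lower in the protein-coding fit (1.37% of all its rows). Hes5, a Notch effector, was at 10.8 and 5.83 FPKM at E17 and P0, against 64.5 and 42.6 FPKM at E13 and E15 (log2 difference -2.57 ± 0.43, limma adjusted p = 0.0905). Neurog2, a proneural factor of glutamatergic neurons, was at 9.76 and 3.8 FPKM at E17 and P0, against 69.2 and 57.9 FPKM at E13 and E15. These ligand, effector and proneural genes shared the direction. Dll1, a Notch ligand, was at 9.43 and 8.77 FPKM at E17 and P0, against 89.1 and 19.8 FPKM at E13 and E15. Gadd45g was at 7.73 and 3.51 FPKM at E17 and P0, against 29.5 and 21.4 FPKM at E13 and E15.

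Among genes that time the output of progenitors, 8 of 15 listed were tested, and 4 were separated and lower and 1 higher. Hmga2, a chromatin protein gene of young stem cells, was at 1.25 and 0.165 FPKM at E17 and P0, against 53.5 and 11.4 FPKM at E13 and E15 (log2 difference -4.0 ± 0.82, limma adjusted p = 0.111). Its level was lower at each later age. Nfix and Nfia, 2 related nuclear factor I genes of later progenitors, went opposite ways. Nfix was at 58.6 and 167 FPKM at E17 and P0, against 12.3 and 31.2 FPKM at E13 and E15, and Nfia at 91.6 and 67.6 FPKM at E17 and P0, against 213 and 217 FPKM at E13 and E15. The difference between the 2 genes was not tested. Igf2bp1 was left out by name and not for its level, since its row is shared with a small RNA. That row was at 5.68 and 0.394 FPKM at E17 and P0, against 20.2 and 10.5 FPKM at E13 and E15.

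**Figure D2:**
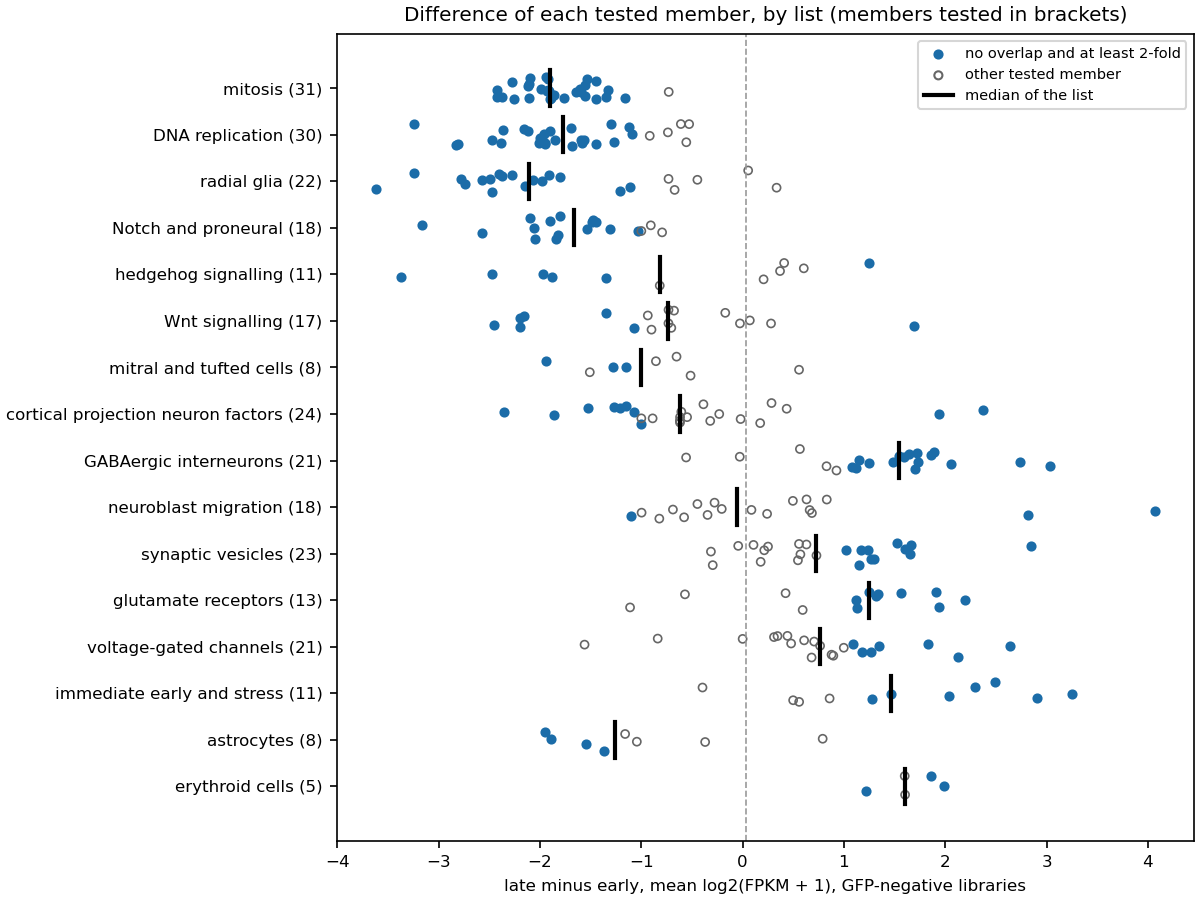
Late minus early difference of mean log2(FPKM + 1) in GFP-negative cells for each tested member of 16 lists; filled points did not overlap between late and early libraries and were at least 2-fold apart, open points are the other members, and the dashed line marks the median of all rows (0.04). The mitosis, replication and Notch lists lie left of 0, the radial glia list lies there except for 2 members, and the GABAergic interneuron, glutamate receptor and immediate early lists mostly right of it.

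Most genes of the interneuron list were higher in late cells. Of 27 listed GABAergic interneuron genes, 21 were tested, 16 were separated and higher and 0 lower, and the median log2 difference was 1.55. The other 5 were not separated, and 2 of the 21 had a negative difference, down to -0.56. Of the 21, 1 passed the test over all rows. It was Calb2, which also marks Cajal-Retzius cells and was higher in every GFP-positive library than in any GFP-negative one. In the protein-coding fit 3 were called higher, beside 1.01% of all its rows. Sp9, a zinc finger factor of bulb interneuron precursors, was at 40.4 and 50.0 FPKM at E17 and P0, against 7.72 and 13 FPKM at E13 and E15 (log2 difference 2.06 ± 0.43, limma adjusted p = 0.115). Dlx6, a homeobox gene of forebrain interneurons, was at 132 and 115 FPKM at E17 and P0, against 24.1 and 43.7 FPKM at E13 and E15. Sst, the somatostatin gene, was at 26.2 and 9.94 FPKM at E17 and P0, against 0.365 and 3.92 FPKM at E13 and E15. Sp9, Dlx6, Sst and Gad1 had the largest differences of the list, and each was above both early libraries at both late ages. Sst reached the 5 FPKM filter only at the late ages. The median step of the list was 0.94 between E13 and E15, 0.77 between E15 and E17 and 0.30 between E17 and P0, so the gain was not confined to the boundary between early and late ages.

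Genes of neuroblast migration shared no direction. Of 20 listed, 18 were tested, 2 were separated and higher (Prokr2 and Erbb4) and 1 lower (Epha4), and the median difference was -0.06. Over all rows 7.41% were separated and higher and 8.88% separated and lower, so counts this small say nothing about the list. Prokr2, the receptor for prokineticin 2, which draws neuroblasts into the bulb (minus strand of chromosome 2, 132337733 to 132385447), was at 33.8 and 113 FPKM at E17 and P0, against 2.56 and 2.96 FPKM at E13 and E15 (log2 difference 4.07 ± 0.63, limma adjusted p = 0.0764). Erbb4, the neuregulin receptor of migrating interneurons, was at 71.6 and 65.7 FPKM at E17 and P0, against 4.03 and 18.3 FPKM at E13 and E15 (log2 difference 2.82 ± 0.68, limma adjusted p = 0.133). Both receptors were higher at each late age. The guidance receptor gene Epha4 was at 14.5 and 11.7 FPKM at E17 and P0, against 36.1 and 23.1 FPKM at E13 and E15. Dcc, the netrin receptor, was at 85.9 and 45.3 FPKM at E17 and P0, against 147 and 107 FPKM at E13 and E15.

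Projection neuron genes were mostly lower in late cells, but none passed the test over all rows. Of 15 listed mitral and tufted cell genes, 8 were tested, 3 were separated and lower and 0 higher, and the median difference was -1.0. The summed level of the list was 292 and 219 FPKM at E17 and P0, against 655 and 392 FPKM at E13 and E15, and the 4 GFP-positive libraries held between 1781 and 2492 FPKM. The list includes Nts, the reporter gene, which alone held 673 to 1036 FPKM in the GFP-positive libraries. The gap between the populations is therefore partly set by the sort. Eomes, a T-box factor of progenitors and mitral cells, was at 34.0 and 17.3 FPKM at E17 and P0, against 111 and 82.8 FPKM at E13 and E15 (log2 difference -1.93 ± 0.43, limma adjusted p = 0.122). Tbr1, a related factor of postmitotic projection neurons, was at 97.4 and 54.3 FPKM at E17 and P0, against 220 and 121 FPKM at E13 and E15. Barhl2, a homeobox gene, was at 17.7 and 13.7 FPKM at E17 and P0, against 52.9 and 29.1 FPKM at E13 and E15. For these 3 the levels were lower at both late ages. Reln, the secreted glycoprotein gene reelin, overlapped between the groups, with 2.81 and 7.58 FPKM at E17 and P0, against 32.6 and 6.85 FPKM at E13 and E15. Of 24 cortical projection neuron factors, all tested, 8 were separated and lower and 2 higher, beside 8.88% and 7.41% of all rows, with a median of -0.62. Mef2c, which regulates synapse genes, was at 31.5 and 31.5 FPKM at E17 and P0, against 4.92 and 11.1 FPKM at E13 and E15, and Lmo3, a LIM-only transcriptional regulator, was at 38.2 and 80.6 FPKM at E17 and P0, against 5.35 and 17.7 FPKM at E13 and E15. These last 2 were the separated members that were higher.

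Part of the synaptic, receptor and channel genes were higher in late cells, and none passed the test. Of 25 synaptic vesicle genes listed, 23 were tested, 11 were separated and higher, 0 separated and lower and 12 neither, with a median difference of 0.73. In the protein-coding fit 2 of the 23 were called higher, beside 1.01% of all its rows. Synpr, the vesicle protein synaptoporin, was at 76.5 and 68.4 FPKM at E17 and P0, against 5.38 and 15.4 FPKM at E13 and E15 (log2 difference 2.84 ± 0.56, limma adjusted p = 0.104). Syngr1 was at 10.4 and 7.21 FPKM at E17 and P0, against 1.28 and 3.07 FPKM at E13 and E15, and Rims1, a scaffold of release sites, was at 11 and 17.2 FPKM at E17 and P0, against 3.16 and 4.29 FPKM at E13 and E15. Sv2a was at 26.6 and 34.6 FPKM at E17 and P0, against 9.42 and 9.22 FPKM at E13 and E15. Syngr1 and Rims1 reached the 5 FPKM filter only at the late ages. The list's median step was -0.13 between E13 and E15, 0.89 between E15 and E17 and -0.02 between E17 and P0, so the separation lay between E15 and E17.

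Of 24 glutamate receptor genes, 13 were tested, 9 were separated and higher and 0 lower (median 1.25). Grin1, the obligatory subunit of NMDA receptors, was at 11.7 and 15.2 FPKM at E17 and P0, against 3.26 and 4.56 FPKM at E13 and E15 (log2 difference 1.56 ± 0.33, limma adjusted p = 0.115). Grik3 and Grik2, kainate receptor subunit genes, were at 56.3 and 65.7 FPKM and at 26.8 and 30.4 FPKM at E17 and P0, against 6.32 and 34.3 FPKM and 11.1 and 10.3 FPKM at E13 and E15. The metabotropic receptor gene Grm4 was at 9.14 and 7.78 FPKM at E17 and P0, against 0.531 and 3.13 FPKM at E13 and E15. All 4 were above both early libraries at both late ages. Grin1 and Grm4 reached the 5 FPKM filter only at the late ages, so the filter took them through the late side. Of 18 GABA receptor and chloride transporter genes, 10 were tested and 3 were separated and higher (Gabbr1, Gabbr2 and Gabrb2), with a median of 0.69. Gabbr2 reached the 5 FPKM filter only at the late ages, and Gabrb2 only at P0 (6.89 FPKM). This count and median therefore lean on rows that the filter took through the late side. Gabbr1, a GABA-B receptor subunit, was at 124 and 185 FPKM at E17 and P0, against 74.2 and 59.8 FPKM at E13 and E15, and its partner Gabbr2 was at 5.38 and 7.03 FPKM at E17 and P0, against 0.883 and 0.936 FPKM at E13 and E15. Of 34 voltage-gated channel genes, 21 were tested, 7 were separated and higher, 0 separated and lower and 14 neither (median 0.77). Cacna1c, an L-type calcium channel gene, was at 48.3 and 39.8 FPKM at E17 and P0, against 4.36 and 8.71 FPKM at E13 and E15 (log2 difference 2.64 ± 0.40, limma adjusted p = 0.0764). Kcnip1, a potassium channel-interacting protein gene, was at 28.4 and 47.8 FPKM at E17 and P0, against 8.25 and 11.3 FPKM at E13 and E15. Cacna1g, a T-type calcium channel gene, was at 13.8 and 6.81 FPKM at E17 and P0, against 0.645 and 2.68 FPKM at E13 and E15. It too reached the filter only at the late ages. Cacna2d2, a calcium channel subunit gene, had the opposite sign with overlap, at 15.7 and 2.57 FPKM at E17 and P0, against 30.6 and 15.4 FPKM at E13 and E15 (log2 difference -1.56 ± 0.78, limma adjusted p = 0.344).

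Several immediate early genes, which neurons switch on within minutes of stimulation, were higher in late cells, without passing the test. Of 17 immediate early and stress genes listed, 11 were tested, 7 were separated and higher and 0 lower, with a median difference of 1.47. Nr4a1, an orphan nuclear receptor, was at 45.3 and 78.8 FPKM at E17 and P0, against 2.28 and 11.5 FPKM at E13 and E15 (log2 difference 3.25 ± 0.85, limma adjusted p = 0.148), and its relative Nr4a3 at 38.2 and 64.6 FPKM, against 0.415 and 7.14 FPKM. Fos was at 32.4 and 33.2 FPKM at E17 and P0, against 3.77 and 8.92 FPKM at E13 and E15, and Fosb at 19.6 and 26.7 FPKM, against 0.729 and 4.85 FPKM. Npas4, an activity-dependent factor of neurons, was at 16.1 and 17 FPKM at E17 and P0, against 2.06 and 2.19 FPKM at E13 and E15. E13 was lowest for each of these, and late and early libraries did not overlap. Fosb and Npas4 reached the 5 FPKM filter only at the late ages. In GFP-positive cells late and early libraries overlapped for all of these genes. There Fos was at 4.51 and 14.3 FPKM at E17 and P0, against 25.5 and 5.70 FPKM at E13 and E15. The part of papain dissociation and sorting in these levels was not tested.

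Among markers of other cell types, hemoglobin stood highest. The summed level of 9 erythroid rows was 3765 FPKM at E17 and 806 at P0, against 341 FPKM at E13 and 827 at E15, with 2 of 9 markers below 1 FPKM in every GFP-negative library, and GFP-positive libraries held 9.95 to 52.2 FPKM. Hba-a1 was at 654 and 191 FPKM at E17 and P0, against 59.3 and 131 FPKM at E13 and E15, and the beta-globin gene Hbb-bs at 1994 FPKM at E17 and 391 at P0, against 189 FPKM at E13 and 444 at E15. The E17 library stood far above the rest, and the part of blood cells in the other results was not tested. Astrocyte genes (8 tested of 15) had 4 separated and lower and 0 higher; Aldoc, a glycolytic enzyme gene of astrocytes and their precursors, was at 30.6 and 14.4 FPKM at E17 and P0, against 64.9 and 110 FPKM at E13 and E15. Summed levels were 9.25 and 14.0 FPKM at E17 and P0, against 8.90 and 16.5 FPKM at E13 and E15, for microglia, and 14.0 and 8.63 FPKM, against 2.34 and 7.90 FPKM, for endothelium. They were 6.89 and 8.52 FPKM, against 15.7 and 24.9 FPKM, for mural cells, and 18.8 and 23.6 FPKM, against 25 and 43.9 FPKM, for olfactory ensheathing glia. Markers below 1 FPKM in every GFP-negative library were 12 of 16, 7 of 12, 5 of 10 and 5 of 12 in these 4 lists. Single genes made up much of the early sums. At E13 and E15 these were Cd68 (7.30 and 13.4 FPKM, microglia), Myl9 (9.81 and 13.6 FPKM, mural cells) and Ednrb (20.6 and 23.8 FPKM, ensheathing glia). All 10 meningeal markers stayed below 1 FPKM in every GFP-negative library. Olfactory sensory neuron markers summed to 29.0 and 40.6 FPKM at E17 and P0, against 27.6 and 17.3 FPKM at E13 and E15.

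Other named rows with large differences were Etl4, Smad3 and Serpine2, which did not pass. Etl4 was at 2.27 and 0.716 FPKM at E17 and P0, against 84.5 and 31.3 FPKM at E13 and E15 (log2 difference -4.47 ± 0.60, limma adjusted p = 0.0582). Smad3, a transducer of TGF-beta signals, was at 2.73 and 0.638 FPKM at E17 and P0, against 33.8 and 16.5 FPKM at E13 and E15. Serpine2, which encodes the protease inhibitor nexin-1, was at 91.0 and 56.9 FPKM at E17 and P0, against 1.96 and 14.7 FPKM at E13 and E15. The direction was the same in both libraries of each side. The noncoding RNA rows Rpph1 and Rmrp, RNA parts of ribonucleases P and MRP, were at 256 and 118 FPKM and at 68.9 and 23.6 FPKM at E17 and P0, against 6.21 and 17.1 FPKM and 0 and 11 FPKM at E13 and E15. The scaRNA row Scarna3b was at 56.7 and 68.1 FPKM at E17 and P0 and listed at 0 at both early ages.

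**Figure D3:**
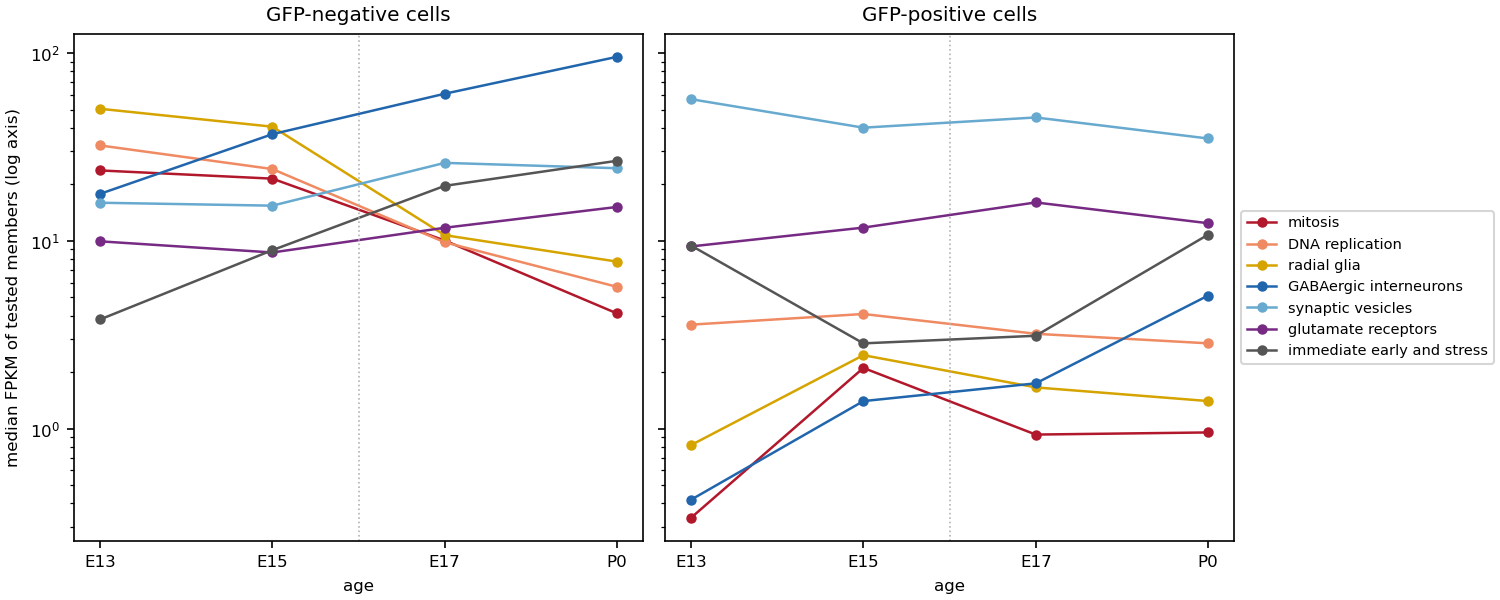
Median FPKM (log axis) of the tested members of 7 lists at each age in GFP-negative cells (left) and GFP-positive cells (right); each point is the median over members in 1 library. In GFP-negative cells the mitosis, replication and radial glia medians are lower and the GABAergic interneuron median higher at E17 and P0 than at E13 and E15.

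The steps between neighbouring ages were unequal. Of the 11675 rows, 721 were at least 2-fold higher and 953 at least 2-fold lower at E15 than at E13 (14.3% in all), 1626 higher and 1155 lower at E17 than at E15 (23.8%), and 648 higher and 1447 lower at P0 than at E17 (17.9%). The boundary between early and late ages was the step with the most such rows, and it also contrasts the deepest library (E15) with the shallowest (E17).

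Rows were chosen on their GFP-negative levels, and the progenitor lists were near the floor in GFP-positive cells, where the 4 libraries had list medians of 0.335 to 2.10 FPKM for mitosis, 2.85 to 4.08 FPKM for replication and 0.817 to 2.46 FPKM for radial glia. List changes are therefore not compared between the populations. The difference of the changes was tested row by row in the same fit. It passed in 8 of 11675 rows (0.0685%, limma), 1108 rows were at an unadjusted p below 0.05, and in the protein-coding fit it passed in 0 rows (1110 unadjusted), so no named gene is shown to change differently. As a description, 122 rows were separated and higher, and 69 separated and lower, in both populations, while 26 were separated and higher and 61 separated and lower in GFP-negative cells with the opposite in GFP-positive cells. The genes with the smallest p of this difference by the naming rule are given by their values. Pcbp3, an RNA-binding protein gene, was at 158 and 171 FPKM at E17 and P0, against 52.7 and 53.0 FPKM at E13 and E15, in GFP-negative cells, and at 120 and 107 FPKM, against 228 and 157 FPKM, in GFP-positive cells (difference of changes 2.35 ± 0.31, limma adjusted p = 0.116). Pbx3, a homeobox gene, was at 263 and 287 FPKM, against 176 and 118 FPKM, in GFP-negative cells, and at 6.42 and 6.40 FPKM, against 20.5 and 18.2 FPKM, in GFP-positive cells. The populations moved in opposite directions for both. Dusp4, a phosphatase gene that limits MAP kinase signals, was at 87.5 and 96.2 FPKM, against 49.0 and 41.3 FPKM, in GFP-negative cells, and at 40.3 and 44.1 FPKM, against 87.5 and 78.1 FPKM, in GFP-positive cells. Slc35c2 was at 27.3 and 23.0 FPKM, against 9.07 and 10.1 FPKM, in GFP-negative cells, and at 9.75 and 11.1 FPKM, against 19.4 and 21.7 FPKM, in GFP-positive cells. Pak6, a kinase gene, was at 13.8 and 17.7 FPKM, against 4.14 and 3.11 FPKM, in GFP-negative cells, and at 21 and 17.3 FPKM, against 26.2 and 21.9 FPKM, in GFP-positive cells. These 3 were likewise higher in late GFP-negative and lower in late GFP-positive cells, and the next genes went the other way. Ston1, an endocytic adaptor gene, was at 1.43 and 0.0647 FPKM, against 15 and 14.7 FPKM, in GFP-negative cells, and at 3.38 and 4.19 FPKM, against 0.562 and 1.24 FPKM, in GFP-positive cells. Tmem39a was at 17.4 and 34.5 FPKM, against 57.3 and 48.8 FPKM, in GFP-negative cells, and at 71.8 and 78.9 FPKM, against 22.2 and 23.8 FPKM, in GFP-positive cells. Phf21b was at 25.2 and 37.5 FPKM, against 73.5 and 54.9 FPKM, in GFP-negative cells, and at 31.4 and 40.5 FPKM, against 10.3 and 7.85 FPKM, in GFP-positive cells. Prdm16, a chromatin regulator gene of radial glia, was at 7.53 and 4.75 FPKM, against 34.1 and 18.6 FPKM, in GFP-negative cells, and at 9.74 and 6.36 FPKM, against 0.725 and 2.08 FPKM, in GFP-positive cells (difference of changes -3.85 ± 0.66, limma adjusted p = 0.230). Prc1 was at 20.1 and 31.9 FPKM at E17 and P0 in GFP-positive cells, against 8.13 and 11.6 FPKM at E13 and E15, the reverse of its direction in GFP-negative cells, unlike the other 3 named mitosis genes, which were at 2.29 FPKM or less there. Fezf2 was at 51.6 and 48.5 FPKM, against 57.0 and 56.4 FPKM, in GFP-positive cells (difference of changes -2.18 ± 0.70, limma adjusted p = 0.406). Stk39 was lower in both populations, with 10.4 and 8.61 FPKM, against 31.1 and 38.3 FPKM, in GFP-positive cells.

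**Figure D4:**
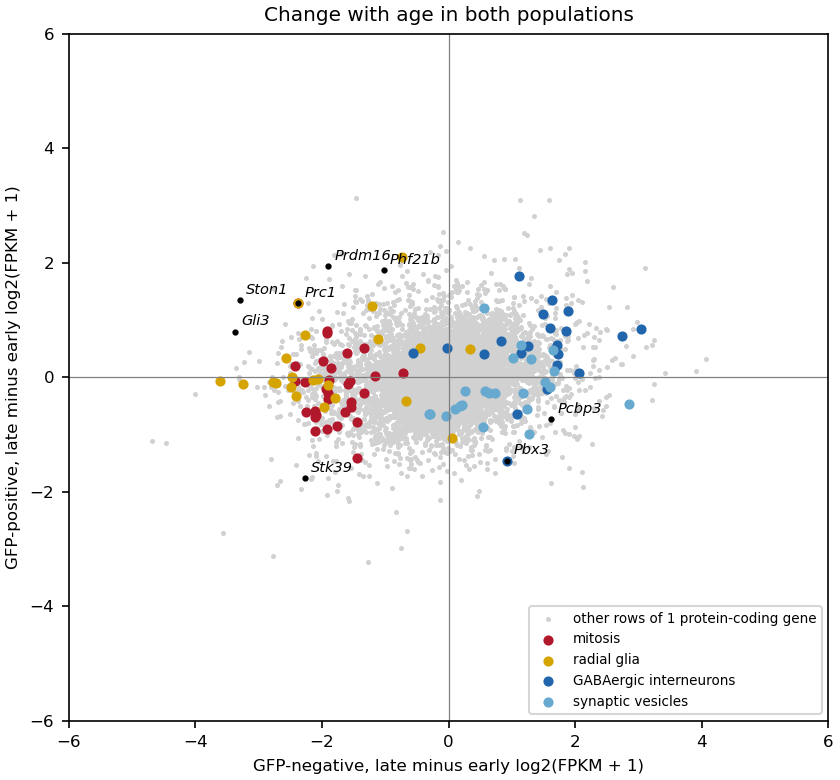
Late minus early difference of mean log2(FPKM + 1) in GFP-negative cells (x axis) and GFP-positive cells (y axis) for 9004 rows of 1 protein-coding gene; coloured points are members of 4 lists and black points named genes. Mitosis and most radial glia members lie left of 0 in GFP-negative cells, and in GFP-positive cells their low levels leave little room for a difference; Gli3, Prc1, Ston1, Prdm16 and Phf21b lie above 0 on the y axis.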

How the data were processed

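RNA of 8 sorted olfactory bulb libraries was sequenced single-end after papain dissociation, per the labels' protocols. The authors deposited FPKM per gene; CASAVA 1.8.2, TopHat2 2.0.9, Cufflinks 2.2.1 and build mm10 were used, per the submitters' processing notes. Gene models, strandedness and filters were not given in the sources used here, so overlapping, antisense and near-identical genes are uncertain. Of 42084 rows, 905 name several genes; 37278 were matched by symbol and 930 by synonym to GENCODE M21 (GRCm38) for positions and classes.

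Values were analysed as log2(FPKM + 1), which understates folds of low genes. limma 3.58.1 (R 4.3.3) fitted 4 group means to 8 libraries with a trend of the variance with level, 2-sided tests and Benjamini-Hochberg adjusted p-values at a threshold of 0.05, and was tested on simulated data. Nothing in the labels says that libraries are separate animals. Members, gene lists and the naming rule were chosen with earlier results of these data known. Named were the given markers, Nts and Mapt, the 8 largest differences each way, up to 4 members of each list, the tested hedgehog genes and the 6 smallest p each way of the difference between populations; predicted genes and rows of several genes were not named. The authors set 14 rows apart, including Dcx, and these were not tested. Some genes that the rule takes are left out of the text.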

Additional observations from a re-analysis of the deposited data

Results flagged for a closer look

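The late minus early change differed between GFP-negative and GFP-positive cells in 8 rows by the test of the difference itself (limma, adjusted over 11675 rows). Of these, 7 belong to small RNA classes, 0 to single protein-coding genes and 1 to another class, and in 6 the late GFP-negative libraries were the higher ones. Groups of 2 libraries are too small for a check of single outlying samples.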

How the results depend on the processing

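Counts of rows past the threshold depended on the processing. For late against early, the 21 calls became 7 with a pseudocount of 0.1, 50 with quantile normalization, 49 with GFP-negative libraries alone, 36 with robust empirical Bayes and 1 with a straight line over age, and 74 to 117 when 1 GFP-negative library was left out. Among alternatives chosen after seeing the data, there were 214 with protein-coding rows alone (200 with GFP-negative libraries alone, and 0, 32, 55 and 0 without E13, E15, E17 and P0), 1 without all small RNA classes and 0 when the fit of all rows was adjusted over protein-coding rows (smallest adjusted p = 0.102, 1741 unadjusted, limma). For the difference between populations, the 8 calls became 5 with a pseudocount of 0.1, 16 with an FPKM filter of 1, 13 with no filter, 16 without a trend, 0 with a straight line (1292 unadjusted, limma), 68 to 102 with 1 library left out, 0 with protein-coding rows alone, also with 1 library left out, and 1 without small RNA classes. The cause was not tested. The total of 1902 separated rows stayed within 1.5 times under each alternative run, but its balance did not: without P0 there were 1539 higher and 1123 lower, and without E15 1229 higher and 1568 lower. Of 2388 values for 115 named genes, 2218 kept direction and side of the threshold, 115 newly passed and 43 no longer did; 12 reversed, in all rows and in protein-coding rows alike: with 1 library left out, Ptch1 lay between -0.12 and 0.94, Slco1c1 between -0.61 and 1.16 (-0.59 without E13), Adcy3 between -1.13 and 0.42 and Ndnf between -0.50 and 0.29 (0.22 without E13). No list median reversed in 441 values, and 56 moved beyond the spread between libraries. The labels give no replicate numbers, but each age has 1 library of each population. With age as a replicate block (2 residual degrees of freedom, chosen after seeing the data) the difference between populations passed in 6 rows, 4 of them among the 8, and in 0 protein-coding rows (1369 unadjusted, limma); deviations of libraries of the same age correlated at 0.169 for late and 0.166 for early ages, over genes. Late against early cannot be paired, since age defines the sides. Depth limits rows near 1 FPKM.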

Other observations

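Genes that were separated and higher in late GFP-negative cells spanned more of the genome. Their median span was 34.1 kb over 545 protein-coding genes with a position, against 28.1 kb for the 851 separated and lower genes and 27.2 kb for all 8999 tested genes with a position, and 27.5% of them, 20.1% and 16% were longer than 100 kb. These are descriptions with no test.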
